A study of Homo sapiens with 16 samples.

Results

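The MAGEA family (melanoma antigen family A) was described across 8 conditions of 2 human neuroblastoma cell lines. Its members were chosen by name: MAGEA1, MAGEA2, MAGEA3, MAGEA4, MAGEA6, MAGEA8, MAGEA9, MAGEA10, MAGEA11 and MAGEA12, which are 10 of the 23459 genes in the count table. Be(2)-C and IMR5-75 are established lines of this tumour of the developing sympathetic nervous system. Be(2)-C is a cloned subline, so its libraries describe that clone. Each line was grown in RPMI medium with 10% FCS and received 1 of 4 treatments: the solvent DMSO, 1 µM DAC for 72 h, 1 µM EPZ-6438 for 96 h, or both drugs at these doses and times. No other agent or genetic change separates the groups in the labels. DAC is the usual abbreviation of decitabine, a cytidine analogue that traps DNA methyltransferases, although the labels do not spell it out. EPZ-6438 (tazemetostat) inhibits EZH2, the enzyme that places the repressive mark H3K27me3. Each of the 8 groups had 2 libraries of total RNA depleted of ribosomal RNA. No label says that the 2 libraries came from separate cultures. Every p-value rests on the spread between the 2 libraries of a group, pooled over the 8 groups and shared in part across genes. That spread may be technical only.

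MAGEA genes are cancer-testis antigens of the type I MAGE group on chromosome X. They are normally transcribed in male germ cells and in trophoblast and are kept silent in most other tissues, where CpG methylation of their promoters is a known part of the silencing. Many tumours transcribe them again, and peptides of the proteins are displayed on HLA class I molecules, where cytotoxic T cells can recognise them. The proteins share a MAGE homology domain that binds RING ubiquitin ligases. MAGEA3 and MAGEA6 bind TRIM28 and direct it to the kinase AMPK, MAGEA2 binds TRIM28 and affects p53, and MAGEA11 is a co-regulator of the androgen receptor. DNA-demethylating drugs are known to switch MAGEA genes on in cultured tumour cells, and the comparisons below give the response of each member in the 2 lines.

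Promoter sequences were taken from RefSeq (GRCh38.p14) for the 250 bases before each annotated start, which held 8 of the 10 members. MAGEA1 and MAGEA10 are named only. The number of CpG pairs in the window differed between members: MAGEA11 had 18, MAGEA3 and MAGEA6 had 15 each, MAGEA8 had 8 and MAGEA9 had 7. MAGEA4 has 5 annotated starts with 6 to 14, and MAGEA12 has a pair of starts with 5 and 13. The median over all 35097 windows of the RefSeq table was 11. DNA methylation was not measured in these libraries, so these letters say where it could occur and nothing on whether it did. The following 120-base stretches, with each CpG in capitals, show the member with the most CpG pairs and the member that reached the highest level, as described further on. The MAGEA11 stretch is chrX:149711905-149712024 and the MAGEA4 stretch is chrX:151912354-151912473, both on the plus strand.
MAGEA11: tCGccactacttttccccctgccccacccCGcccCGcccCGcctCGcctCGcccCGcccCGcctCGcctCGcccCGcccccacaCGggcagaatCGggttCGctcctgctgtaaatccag
MAGEA4: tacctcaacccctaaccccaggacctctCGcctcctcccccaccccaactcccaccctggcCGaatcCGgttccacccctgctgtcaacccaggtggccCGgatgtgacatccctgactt

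The MAGEA11 stretch holds 14 CpG pairs and the MAGEA4 stretch holds 4. The MAGEA4 stretch belongs to the start with the fewest CpG pairs in its window. Stretches of the same length at the other MAGEA4 starts hold 2 to 10. The MAGEA4 stretch shown ends at the start, and the MAGEA11 stretch ends 35 bases before it, so the contrast depends on the stretch taken. The letters of 3 motifs were searched on both strands of the 250-base windows. The ETS core in the form CCGGAA was found in MAGEA3 and MAGEA6 alone among the matched members, 113 bases before the start. It was in 14.5% of all windows. Other forms of the core were not searched, and the related letters CCGGAT occur in windows of MAGEA2, MAGEA4, MAGEA9, MAGEA11 and MAGEA12. The GC box GGGCGG was found 4 times in MAGEA11, 2 times in MAGEA8 and once in 4 of the 5 MAGEA4 windows, and in 42.6% of all windows. The E-box CACGTG was in no member window and in 6.34% of all windows. The MAGEA3 and MAGEA6 windows were identical at 250 of 250 bases, although the genes lie on opposite strands.

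A 9-base run, GGATGTGAC, was present in a window of all 8 matched members and in 0.256% of all windows on either strand. It was looked for after the sequences had been seen, as the longest run that the members share. It is shown in capitals within 30 bases of each member. Members at or near 0 counts, such as MAGEA9, carry it too, but little of their transcript sequence is unique, as described further on. Whether the run has a part in the levels was not tested. MAGEA2 and MAGEA6 are read on the minus strand and the others on the plus strand. The positions are chrX:149712029-149712058 for MAGEA11, chrX:149781894-149781923 for MAGEA9, chrX:149881153-149881182 for MAGEA8, chrX:151912436-151912465 for MAGEA4, chrX:152698690-152698719 for MAGEA3, chrX:152733727-152733756 for MAGEA12, chrX:152753891-152753920 for MAGEA2 and chrX:152769764-152769793 for MAGEA6.
MAGEA11: gctccaggcgtgggggccGGATGTGACctc
MAGEA9: gctccaggcttgggggccGGATGTGACgtc
MAGEA8: ggtgagccctgggtggacGGATGTGACgcc
MAGEA4: tgtcaacccaggtggcccGGATGTGACatc
MAGEA3: agggtagtaccgttgccaGGATGTGACgcc
MAGEA12: cagggaagtcacggggccGGATGTGACgcc
MAGEA2: cagggaagtcacgggcccGGATGTGACgcc
MAGEA6: agggtagtaccgttgccaGGATGTGACgcc

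The run lay 12 bases before the start in MAGEA8 and MAGEA12, 13 in MAGEA11, 18 in MAGEA9, 20 in MAGEA4, 60 in MAGEA2 and 86 in MAGEA3 and MAGEA6. Counted from the other annotated start of the gene, the same run lay 18 bases before it in MAGEA2 and 117 in MAGEA12. A match is a description of the letters and not of a binding site.

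Reads were 50 bases long, so transcripts that share long stretches cannot all be counted apart. The share of each member's 50-base stretches that occurs in the transcripts of no other gene was computed from GENCODE release 29. It was 99.8% for MAGEA11, 99.4% for MAGEA8, 99.3% for MAGEA1, 92.7% for MAGEA4, 86.2% for MAGEA12 and 84.1% for MAGEA10. It was 46.1% for MAGEA6 and 43.5% for MAGEA3, which share 52.0% and 54.9% of their stretches with each other. It was 6.01% for MAGEA9, which shares 94.0% with its copy MAGEA9B, and 3.62% for MAGEA2, which shares 96.4% with its copy MAGEA2B. The members with the least unique sequence had the lowest counts. MAGEA9 had 0 counts in all 16 libraries, as did MAGEA9B and MAGEA2B, and MAGEA2 had 18 counts in total with at most 5 in a library. All other members had 249 to 1751 counts in total. How reads that match several places were treated is not given in the sources used here, and the part of shared sequence in the low counts of MAGEA2 and MAGEA9 was not tested. For MAGEA3 and MAGEA6 the division of reads between the pair is uncertain, and their sum is given beside them. The strand setting of the counting is not given either, so reads from an antisense transcript over a member cannot be told apart from its own.

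**Figure D1:**
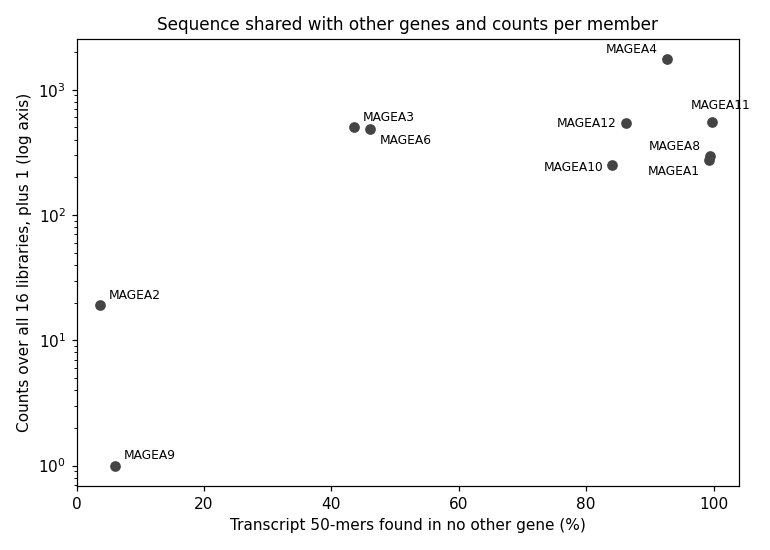
Total counts over 16 libraries, plus 1, on a log axis, against the percentage of each member's 50-base transcript stretches found in no other gene (linear axis). MAGEA9 and MAGEA2, at 6.01% and 3.62%, have 0 and 18 counts, and the members above 40% have at least 249.

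Library totals ran from 9539557 to 14032155 counts, so that 1 count was worth about 0.1 CPM (counts scaled to a common library size) and a count of 0 in both libraries of a group allowed a level of up to 0.106 to 0.144 CPM. These limits come from 3 counts and cover counting error only. The 8 neuroblastoma markers all had counts in every group, with a summed level of 2148 to 6877 CPM. Marker sums of other cell types were 0.442 to 2.94 CPM for 4 haematopoietic genes and 0.295 to 3.71 CPM for 3 epithelial genes, with CD3E between 0 and 2 counts in a library. Some of these moved with the drugs in IMR5-75: PTPRC had 2 and 3 counts with DMSO and 14 and 24 with DAC (log2 change 2.79 ± 0.60 SE, adjusted p = 0.00112), and EPCAM rose by 2.99 ± 0.58 (adjusted p = 0.000459). EPCAM also rose with both drugs in Be(2)-C, from 13 and 5 counts to 37 and 22 (1.77 ± 0.43, adjusted p = 0.00425), and the epithelial sum went from between 0.643 and 1.36 to between 2.41 and 3.38 CPM. The 4 germ cell markers, which belong to the tissue where MAGEA genes are normally on, had a summed level of 1.74 to 1.81 CPM in Be(2)-C with DMSO and 13.8 to 18.5 with DAC. In IMR5-75 the same sum was 0.925 to 1.55 CPM with DMSO and 121 to 148 with DAC, and DAZL, a germ cell RNA-binding protein, accounted for most of it with 1525 and 1706 counts after DAC. Their part in the results below was not tested. In bulk libraries a change in the share of transcribing cells and a change in RNA per cell cannot be told apart.

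With DMSO the family was close to silent in both lines. The summed counts of the 10 members were 1 and 2 in the Be(2)-C libraries and 2 and 3 in the IMR5-75 libraries, or 0.137 ± 0.0658 and 0.200 ± 0.0742 CPM (SD, n = 2). In Be(2)-C only MAGEA3 and MAGEA12 had a count, and in IMR5-75 only MAGEA1, MAGEA8, MAGEA10, MAGEA11 and MAGEA12, each with a single count in a single library. No member differed between the lines with DMSO by edgeR's quasi-likelihood test at an adjusted p under 0.05, against 63.2% of all 15967 genes tested. DESeq2 also called 0 members there, and 0 had an unadjusted p under 0.05. Members with so few counts could not be called, so these tests cannot show whether their levels with DMSO were equal. Only 8 of the 10 members passed the filter on low counts, because of their counts after DAC, and MAGEA2 and MAGEA9 were not tested in any comparison. The tested set thus favours members that rose with DAC, and the shares of all genes called do not correct for this.

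EPZ-6438 alone left the family at this level. The summed counts were 1 and 2 in Be(2)-C and 6 and 2 in IMR5-75, which is 0.138 ± 0.0667 and 0.315 ± 0.223 CPM. MAGEA1, MAGEA2 and MAGEA11 had 1 count each in Be(2)-C and the other members 0. In IMR5-75 MAGEA10 had 3 and 1 counts, MAGEA8 1 and 1, MAGEA1 and MAGEA2 1 and 0, and the other members 0. In both lines edgeR and DESeq2 called 0 of the 8 tested members, with 0 at an unadjusted p under 0.05. Among all genes tested the drug changed 10.2% in Be(2)-C and 1.98% in IMR5-75. A member below about 0.1 CPM could have changed without being detectable at this depth.

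DAC raised 6 of the 8 tested members in Be(2)-C, where 3.73% of all genes tested were called higher (6.7% in either direction). DESeq2 also called 6, and the median log2 change was 5.99 over the members against 0.02 over all genes tested. Where the DMSO counts are 0, the log2 change depends on the small count that edgeR adds. MAGEA4, for example, has a log2 change of 5.80 but a fold of at least 4.14. The median over the members is therefore no measured effect size. The summed counts went from 1 and 2 with DMSO to 232 and 197, and the level to 18.7 ± 0.593 CPM. Folds below are set against the DMSO libraries. Where these are both at 0, the fold is a lower bound against 3 counts over the group. Where they hold 1 to 3 counts, it is a ratio with an exact 95% counting interval.

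MAGEA3 had 0 and 1 counts with DMSO and 48 and 45 with DAC, a level of 4.06 ± 0.155 CPM and a ratio of 88.8 (15.6 to 3546, adjusted p = 9.46e-06). Its only DMSO count lay in the second library, and without that library the fold is at least 14.9. MAGEA6, its near-identical partner, had 0 and 0 against 56 and 38 counts, at least 29.9-fold higher (adjusted p = 2.12e-05). Together the pair reached 8.12 ± 0.614 CPM, and both DAC libraries were far above both DMSO libraries.

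MAGEA11, the androgen receptor co-regulator, had 0 and 0 counts with DMSO and 44 and 43 with DAC, at least 27.7-fold higher (adjusted p = 3.32e-06). MAGEA12, whose peptides are also known T-cell targets, had 1 and 1 against 43 and 37 counts, a ratio of 38.2 (10.2 to 321, adjusted p = 7.79e-06). MAGEA1, the first human tumour antigen found to be recognised by T cells, had 0 and 0 against 32 and 23 counts, at least 17.5-fold higher (adjusted p = 5.96e-05). These members formed a group with 23 to 56 counts in each DAC library.

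The other members stayed near the detection limit in Be(2)-C. MAGEA4, the target of a T-cell receptor therapy, had 0 and 0 counts with DMSO and 7 and 6 with DAC, or 0.566 ± 0.0142 CPM, at least 4.14-fold higher. Its adjusted p was 0.0134, and without the first DMSO, the second DMSO or the first DAC library it was 0.110, 0.0924 and 0.0636. MAGEA8 had 0 and 0 against 1 and 2 counts (adjusted p = 0.307) and MAGEA10 had 0 and 0 against 1 and 3 (adjusted p = 0.181). The DAC and DMSO libraries did not overlap for these members, but 1 to 3 counts carry little precision. MAGEA2 had 0 counts in all 4 of these libraries.

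All 8 tested members rose with DAC in IMR5-75, where 19.9% of all genes tested were called higher (33.7% in either direction). DESeq2 also called 8. The median log2 change was 6.99 against 0.02 over all genes tested, with the same dependence on edgeR's added count as in Be(2)-C. The summed counts went from 2 and 3 to 873 and 831, or 63.3 ± 2.11 CPM.

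MAGEA4 dominated this response. It had 0 counts in both DMSO libraries and 370 and 368 with DAC, a level of 27.4 ± 1.77 CPM and at least 232-fold higher (adjusted p = 3.3e-11). The next members on either side of it along chromosome X, with other genes between them, also rose. MAGEA8 had 1 and 0 counts with DMSO and 64 and 47 with DAC, a ratio of 105 (18.4 to 4178, adjusted p = 1.17e-06). MAGEA10, another antigen used as a T-cell receptor target, had 0 and 1 against 42 and 41, a ratio of 78.4 (13.7 to 3134, adjusted p = 1.53e-06). Both ratios rest on a single DMSO count, and without the library that holds it they are at least 16.3-fold for MAGEA8 and at least 13.9-fold for MAGEA10.

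The members that responded in Be(2)-C rose here as well. MAGEA11 had 1 and 0 counts with DMSO and 99 and 76 with DAC, a ratio of 165 (29.3 to 6566, adjusted p = 1.34e-08), or at least 25.7-fold without the first DMSO library. MAGEA12 had 0 and 1 against 84 and 80, a ratio of 155 (27.4 to 6156, adjusted p = 8.69e-09), or at least 27.5-fold without the second. MAGEA3 had 0 and 0 against 82 and 74, at least 49.1-fold higher (adjusted p = 4.27e-08). For all 3 genes no DMSO library had more than 1 count and no DAC library fewer than 74.

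MAGEA6 had 0 and 0 counts with DMSO and 72 and 81 with DAC, at least 48.2-fold higher (adjusted p = 2.17e-07), and the MAGEA3 and MAGEA6 sum was 11.5 ± 0.836 CPM. MAGEA1 had 0 and 1 against 59 and 59, a ratio of 111 (19.6 to 4440, adjusted p = 2.12e-07), or at least 19.8-fold without the second DMSO library. MAGEA2 had 0 and 0 against 1 and 5 counts and was not tested. A lower bound with a control at 0 depends on the depth of the controls: without a DMSO library such bounds fall to between 0.467 and 0.533 of their value in this family.

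**Figure D2:**
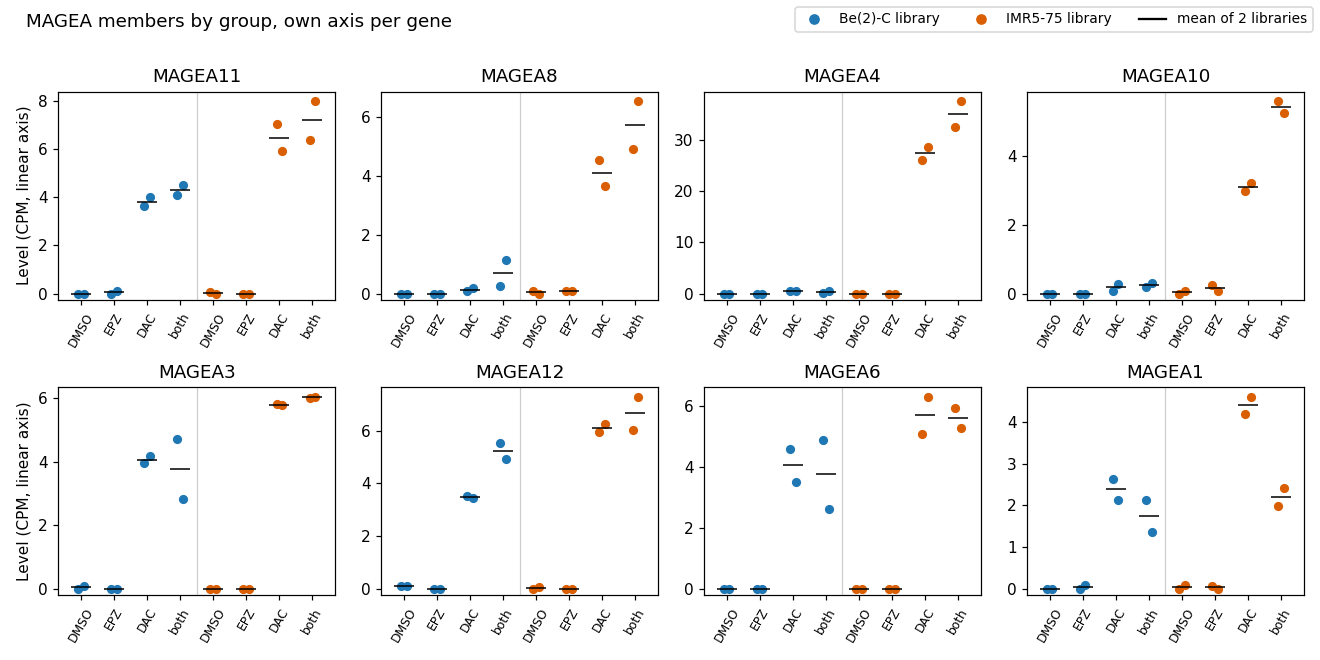
CPM of the 8 members with appreciable counts, 1 panel each with its own linear axis, in the 4 treatments of Be(2)-C and IMR5-75. Dots are libraries and lines the mean of 2. DMSO and EPZ-6438 libraries lie at or near 0 in every panel, and MAGEA4, MAGEA8 and MAGEA10 are far higher in treated IMR5-75 than in treated Be(2)-C.

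The order of the members was compared per kilobase of the longest coding transcript. That length includes sequence shared with other genes. The places of MAGEA3 and MAGEA6 therefore depend on how shared reads were treated, which is not given, and they could be understated. In Be(2)-C with DAC, MAGEA6 (2.31 ± 0.436 CPM per kb), MAGEA3 (2.30 ± 0.0880), MAGEA11 (2.04 ± 0.138) and MAGEA12 (1.98 ± 0.0443) followed each other within or close to their spread. MAGEA1 came next at 1.39 ± 0.208, then MAGEA4 at 0.319 ± 0.00803, and MAGEA10 and MAGEA8 were lowest at 0.0657 ± 0.0505 and 0.0633 ± 0.0345, within their spread. In IMR5-75 with DAC, MAGEA4 led at 15.5 ± 0.996 CPM per kb, above MAGEA11 at 3.47 ± 0.411. MAGEA12 (3.46 ± 0.117), MAGEA3 (3.29 ± 0.0143) and MAGEA6 (3.24 ± 0.489) did not differ from MAGEA11 beyond the spread of the libraries. MAGEA1 (2.57 ± 0.175), MAGEA8 (1.94 ± 0.290) and MAGEA10 (1.13 ± 0.0576) closed the order. MAGEA4 thus held the first place in one line and the sixth in the other.

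The lines were set against each other after treatment. The planned test, the difference between the lines of the change from DMSO, called 0 members for DAC, EPZ-6438 or both drugs by edgeR, with 0 at an unadjusted p under 0.05 in each, while it called 6.19%, 1.19% and 11.1% of all genes tested. DESeq2 called 0, 0 and 1, the last being MAGEA4. Because the DMSO groups are at 0 or 1 counts, this test has little to compare, and the levels after treatment were compared directly instead, a choice made after seeing the data.

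After DAC, 6 of 8 tested members were higher in IMR5-75 than in Be(2)-C by edgeR and 0 lower, with 34.5% of all genes tested called higher (66.7% in either direction). DESeq2 called 3. The differences fell into a large and a small class. MAGEA4 was higher by a log2 difference of 5.57 ± 0.29 (SE, adjusted p = 1.12e-11), a count ratio of 48.4 (28.1 to 91.2). MAGEA8 differed by 4.87 ± 0.60 (adjusted p = 6.91e-07), a ratio of 31.5 (10.5 to 155) that was 50.1 without the second Be(2)-C DAC library and 22.2 without the first. MAGEA10 differed by 4.06 ± 0.54 (adjusted p = 1.83e-06), a ratio of 17.7 (6.65 to 66.4) that was 37.4 and 11.1 without the same libraries. These 3 calls were made by DESeq2 too and held in every alternative tried.

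The other members differed by less than 1 on the log2 scale. MAGEA1 differed by 0.87 ± 0.32 (adjusted p = 0.0211), MAGEA12 by 0.80 ± 0.25 (adjusted p = 0.00764) and MAGEA11 by 0.77 ± 0.26 (adjusted p = 0.0125). DESeq2 did not call these 3, and the MAGEA1 and MAGEA11 calls were lost with 1 library left out, at adjusted p of 0.0864 to 0.113 for MAGEA1 (without the second DAC library of either line) and 0.0745 to 0.0920 for MAGEA11 (without the first of either line). MAGEA3 at 0.51 ± 0.27 (adjusted p = 0.0994) and MAGEA6 at 0.48 ± 0.29 (adjusted p = 0.154) were not called. Summed, MAGEA1, MAGEA3, MAGEA6, MAGEA11 and MAGEA12 reached 17.8 ± 0.790 CPM in Be(2)-C and 28.4 ± 0.575 in IMR5-75, while MAGEA4, MAGEA8 and MAGEA10 reached 0.880 ± 0.197 and 34.6 ± 1.31.

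After both drugs the same large class was seen. MAGEA4 was higher in IMR5-75 by 6.66 ± 0.31 (adjusted p = 3.66e-12), a ratio of 105 (50.6 to 261) that was 198 without the second Be(2)-C library and 67.2 without the first. MAGEA10 was higher by 4.43 ± 0.48 (adjusted p = 1.19e-07) and MAGEA8 by 3.06 ± 0.43 (adjusted p = 3.59e-06). The MAGEA8 ratio of 8.53 rose to 21.5 and fell to 4.98 without the second or the first Be(2)-C library, since these hold 11 and 3 of its counts. MAGEA11 at 0.74 ± 0.25 (adjusted p = 0.0139) and MAGEA3 at 0.66 ± 0.27 (adjusted p = 0.0398) were called too. MAGEA6, MAGEA12 and MAGEA1 were not, at 0.56 ± 0.30, 0.35 ± 0.23 and 0.31 ± 0.37. That makes 5 of 8 members by edgeR and 3 by DESeq2, with 34.3% of all genes tested called higher (67.8% in either direction). Without the second IMR5-75 library of both drugs the count was 3.

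**Figure D3:**
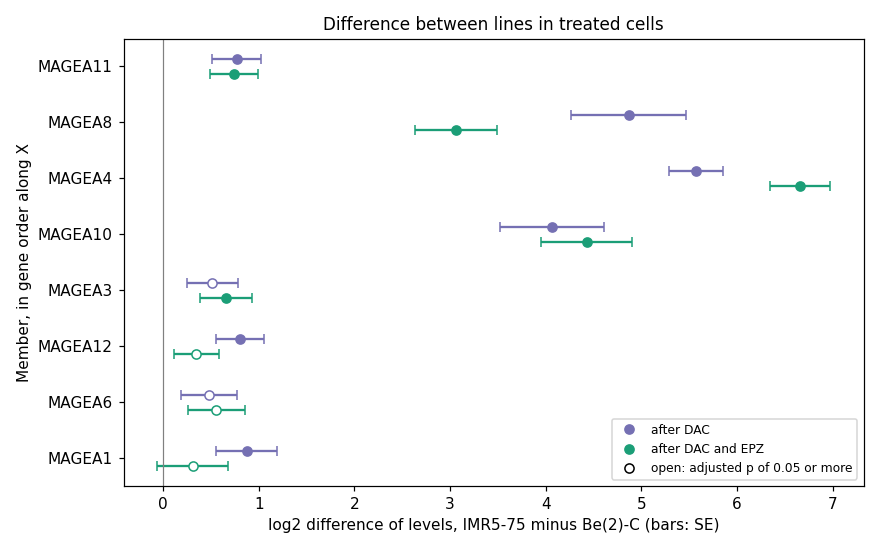
Log2 difference of each tested member, IMR5-75 minus Be(2)-C, after DAC and after both drugs, with bars of 1 SE from the edgeR fit. Open symbols have an adjusted p of 0.05 or more. MAGEA4, MAGEA8 and MAGEA10 lie between 3.06 and 6.66, and the other members lie below 0.9.

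The composition of the MAGEA counts differed accordingly. MAGEA4, MAGEA8 and MAGEA10 together made up 4.73% ± 1.21 (SD, n = 2) of the family's counts in Be(2)-C with DAC and 54.7% ± 0.247 in IMR5-75 with DAC. The share of MAGEA4 alone was 3.03% and 43.3%. MAGEA3 and MAGEA6 together held 43.5% in Be(2)-C and 18.1% in IMR5-75. These shares are tied to each other, since a high MAGEA4 level lowers the share of every other member.

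**Figure D4:**
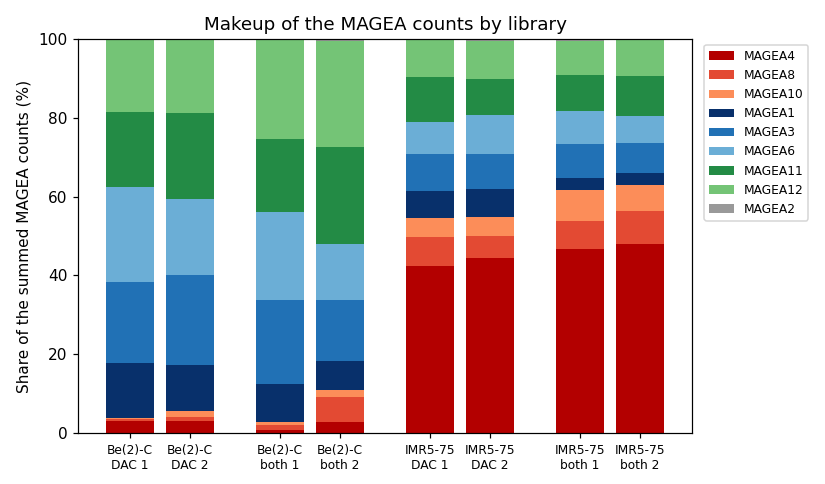
Percentage of the summed MAGEA counts taken by each member in the 8 libraries treated with DAC or with both drugs, as stacked bars that reach 100%. MAGEA4 is the largest band in all 4 IMR5-75 libraries, with a mean share of 43.3% after DAC, and a thin band in Be(2)-C, at 3.03%.

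MAGEA8, MAGEA4 and MAGEA10 are consecutive in the order of the 8 tested members along chromosome X. MAGEA11 precedes them, and MAGEA3, MAGEA12, MAGEA6 and MAGEA1 follow in that order. The genes between them in that stretch did not share a direction. PASD1, another cancer-testis gene, had 6 and 3 counts in Be(2)-C with DAC and 203 and 205 in IMR5-75, a ratio of 38.6 (20.1 to 85.0, adjusted p = 9.93e-10). With DMSO its difference between the lines was -1.17 ± 1.00 (adjusted p = 0.324). The following neighbours differed in the same direction with DMSO already. GABRE, a GABA receptor subunit, had 85 and 93 counts in IMR5-75 against 1 and 1 in Be(2)-C after DAC, and 60 and 46 against 0 and 0 with DMSO. Values were also higher for MAMLD1 (3.65 ± 0.99 after DAC, 2.03 ± 0.83 with DMSO), MTM1 (1.58 ± 0.23 and 2.24 ± 0.27), VMA21 (0.85 ± 0.14 and 0.80 ± 0.14) and HMGB3 (0.55 ± 0.11 and 0.71 ± 0.11). GPR50 was lower in IMR5-75 after DAC (-2.52 ± 0.52) and had 0 and 0 counts there with DMSO against 4 and 7 in Be(2)-C. MTMR1 was lower as well (-0.38 ± 0.13 and -0.44 ± 0.14). Copy number of the region was not analysed here.

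Adding EPZ-6438 to DAC changed no member past the threshold in either line. In both lines edgeR and DESeq2 called 0 of 8 tested members, where edgeR called 5.44% of all genes tested in Be(2)-C and 1.94% in IMR5-75. At an unadjusted p under 0.05 there were 2 members in Be(2)-C, MAGEA8 and MAGEA12, and 3 in IMR5-75, MAGEA1, MAGEA10 and MAGEA4. The interaction of the drugs against DMSO called 0 members in both lines as well (DESeq2 0, and 0 at an unadjusted p under 0.05), with 0.257% and 0.0251% of all genes tested called. Because the DMSO and EPZ-6438 groups hold hardly any counts of the members, this test has little to compare. It cannot show whether the drugs interact on them. The summed level with both drugs was 20.2 ± 2.64 CPM in Be(2)-C and 74.2 ± 6.20 in IMR5-75, against 18.7 ± 0.593 and 63.3 ± 2.11 with DAC. The Be(2)-C libraries of the 2 treatments overlapped in summed counts. Those of IMR5-75 did not, with 873 and 831 counts with DAC and 952 and 1144 with both drugs. The sums were not tested.

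Single members moved in different directions. MAGEA1 in IMR5-75 had 59 and 59 counts with DAC and 27 and 35 with both drugs, a log2 difference of -0.99 ± 0.31 (adjusted p = 0.119) and a count ratio of 0.502 (0.363 to 0.689). In Be(2)-C it had 32 and 23 against 24 and 13, or -0.43 ± 0.38 (adjusted p = 0.636), and the groups overlapped. MAGEA10 in IMR5-75 had 42 and 41 against 76 and 76 counts, a difference of 0.81 ± 0.29 (adjusted p = 0.185) and a ratio of 1.75 (1.33 to 2.32). The groups did not overlap for either gene in IMR5-75, and the adjusted p-values did not pass.

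MAGEA4 in IMR5-75 had 370 and 368 counts with DAC and 445 and 548 with both, or 0.36 ± 0.17 (adjusted p = 0.327). The Be(2)-C libraries had 7 and 6 against 2 and 5 counts of it, or -0.73 ± 0.63, a ratio of 0.595 (0.201 to 1.60), and MAGEA10 had 1 and 3 against 2 and 3, a ratio of 1.38 (0.297 to 6.96). MAGEA8 in IMR5-75 had 64 and 47 against 67 and 95, or 0.48 ± 0.30 (adjusted p = 0.496), with both libraries of the combination above those of DAC. In Be(2)-C it had 1 and 2 against 3 and 11, or 2.29 ± 0.88 (adjusted p = 0.16), a difference carried mostly by the second library. MAGEA12 in Be(2)-C had 43 and 37 against 62 and 47 counts, or 0.59 ± 0.26 (adjusted p = 0.237). MAGEA3, MAGEA6 and MAGEA11 lay between -0.10 and 0.18 in both lines. Their count ratios in Be(2)-C, 0.951 (0.696 to 1.30), 0.941 (0.689 to 1.28) and 1.13 (0.832 to 1.54), leave room for changes within those intervals. MAGEA2, which was not tested, had 1 and 1 counts with both drugs in Be(2)-C and 5 and 3 in IMR5-75, and MAGEA9 stayed at 0. For a difference between the lines in the change from DAC to both drugs, edgeR called 0 members and DESeq2 0. None had an unadjusted p under 0.05, and 0.507% of all genes tested were called. The estimates, IMR5-75 minus Be(2)-C, included -1.81 ± 0.94 for MAGEA8 and 1.09 ± 0.65 for MAGEA4. With so few Be(2)-C counts of MAGEA4, MAGEA8 and MAGEA10, this test cannot show that the changes were equal.

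**Figure D5:**
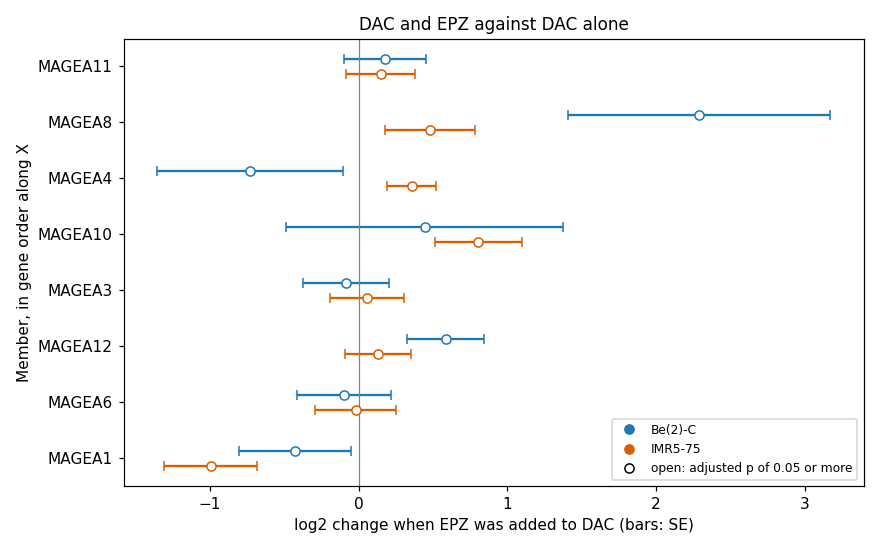
Log2 change of each tested member from DAC alone to both drugs in Be(2)-C and IMR5-75, with bars of 1 SE from the edgeR fit. All symbols are open, which marks an adjusted p of 0.05 or more, and the estimates run from -0.99 for MAGEA1 in IMR5-75 to 2.29 for MAGEA8 in Be(2)-C.

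Against DMSO, the combination raised 7 of 8 tested members in Be(2)-C (13.2% of all genes tested higher, 23.7% in either direction, DESeq2 7) and 8 in IMR5-75 (25.7% higher, 46.2% in either direction, DESeq2 8). The added member in Be(2)-C was MAGEA8, at least 4.93-fold higher (adjusted p = 0.00693, but 0.101 without the second library of both drugs and 0.0519 without the first DMSO library). MAGEA10, with 2 and 3 counts, was not called (adjusted p = 0.0593). MAGEA4, with 2 and 5 counts, had an adjusted p of 0.0217, which rose to between 0.0983 and 0.149 without either DMSO library or the second library of both drugs. In IMR5-75 MAGEA4 was at least 299-fold higher (adjusted p = 9.9e-12) at 35.2 ± 3.54 CPM. Against EPZ-6438 alone the combination raised 6 members in Be(2)-C (2.84% of all genes tested higher, 4.21% in either direction) and 8 in IMR5-75 (20.7% higher, 37.6% in either direction), namely MAGEA1, MAGEA3, MAGEA6, MAGEA8, MAGEA11 and MAGEA12 in Be(2)-C, where MAGEA4 (adjusted p = 0.0739) and MAGEA10 (adjusted p = 0.167) were not called. The comparisons against DMSO share their control libraries.

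The related MAGEB and MAGEC genes, the other type I MAGE groups on chromosome X, were also raised by DAC. Of the 11 genes counted, 8 were tested. Genes near 0 counts with DMSO passed the filter through their treated libraries, so the tested set favours genes that rose. The median log2 changes, which depend on edgeR's added count as above, were 5.41 in Be(2)-C and 7.20 in IMR5-75. Of the 8 tested, 6 rose in Be(2)-C and 7 in IMR5-75, where 3.73% and 19.9% of all genes tested were called higher. None fell, and EPZ-6438 alone changed none in either line by edgeR. MAGEB2 had 0 and 2 counts in Be(2)-C with DMSO and 36 and 34 with DAC, a ratio of 33.4 (8.92 to 282, adjusted p = 8.35e-05) that was 16.6 without the first DMSO library and at least 11.2 without the second. In IMR5-75 it went from 0 and 3 to 329 and 301 (adjusted p = 9.79e-11). MAGEC2 went from 0 and 0 to 135 and 128 counts in IMR5-75, at least 82.8-fold higher (adjusted p = 7.55e-09), and MAGEB1 from 0 and 1 to 199 and 207 (adjusted p = 3.53e-10). MAGEC1 was at least 18.6-fold higher in IMR5-75, with 0 and 0 against 26 and 33 counts.

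In Be(2)-C the MAGEB and MAGEC genes that rose with DAC besides MAGEB2 were at lower counts. MAGEC2 had 2 and 0 counts with DMSO and 15 and 19 with DAC, a ratio of 16.2 (4.16 to 140, adjusted p = 0.00406) that was at least 5.38 without the first DMSO library and 8.17 without the second. MAGEB6 was at least 6.05-fold higher, MAGEB1 at least 4.46-fold, MAGEB16 at least 7.01-fold and MAGEB10 at least 5.41-fold. Between the lines after DAC, 7 were higher in IMR5-75 (34.5% of all genes tested were), among them MAGEB1 by 4.60 ± 0.32 and MAGEB2 by 2.93 ± 0.25. MAGEB16 was lower there, by -2.06 ± 0.74 (adjusted p = 0.0211). One of these genes was changed by adding EPZ-6438 to DAC: MAGEB2 in Be(2)-C fell from 36 and 34 counts to 14 and 6, a log2 change of -1.66 ± 0.40 (adjusted p = 0.0181).

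Type II MAGE genes are transcribed in many adult tissues. Of 8 tested, DAC changed 0 in Be(2)-C and raised 2 in IMR5-75, with median log2 changes of 0.04 and 0.09. The shares of all genes called higher were 3.73% and 19.9%, so the count in IMR5-75 is near the share of all genes. In IMR5-75 these were MAGED2, known from renal salt handling, by 0.63 ± 0.12 (adjusted p = 0.000514), and NDN, an imprinted gene, by 5.68 ± 1.27. MAGED2 also rose with EPZ-6438 alone, by 0.41 ± 0.12 in Be(2)-C (adjusted p = 0.0348) and by 0.76 ± 0.13 in IMR5-75 (adjusted p = 0.00237).

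Genes around the MAGEA loci on chromosome X were read from a list of 31, of which 25 were tested. With DAC 4 rose and 1 fell in Be(2)-C (median log2 change 0.09), and 9 rose and 2 fell in IMR5-75 (0.19). Over all genes tested 3.73% rose in Be(2)-C (6.7% called in either direction) and 19.9% in IMR5-75 (33.7%). CSAG1, a cancer-testis gene that starts beside MAGEA12 on the opposite strand, had 0 counts with DMSO in both lines and 12 and 5 with DAC in Be(2)-C (at least 5.41-fold, adjusted p = 0.0109) and 15 and 12 in IMR5-75 (at least 8.50-fold, adjusted p = 0.00034). CSAG2 and CSAG3 had 0 counts in all libraries. PNMA5, a paraneoplastic antigen family gene, went from 1 and 0 to 86 and 81 counts in Be(2)-C (adjusted p = 4.32e-08) and from 0 and 1 to 375 and 336 in IMR5-75 (adjusted p = 3.32e-12). FMR1NB, a testis antigen gene, went from 0 and 0 to 19 and 10 counts in Be(2)-C, and to 112 and 76 in IMR5-75.

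Neighbours outside the antigen genes moved in both directions. GPR50, an orphan receptor gene, had 4 and 7 counts in Be(2)-C with DMSO and 29 and 21 with DAC (adjusted p = 0.0188), and in IMR5-75 0 and 0 against 7 and 3 (adjusted p = 0.0148). PNMA3 (log2 change 2.05 ± 0.56), BGN (2.20 ± 0.78), IDS (0.72 ± 0.13) and GABRE (0.67 ± 0.23) also rose in IMR5-75. GABRA3, a GABA receptor subunit gene that lies between MAGEA10 and MAGEA3 and is the host of several microRNAs, had 88 and 69 counts in IMR5-75 with DMSO and 22 and 13 with DAC, a log2 change of -2.24 ± 0.33. HMGB3 also fell in IMR5-75, by -0.47 ± 0.11, and NSDHL, a cholesterol synthesis enzyme gene, fell in Be(2)-C by -0.53 ± 0.15. PASD1 rose in IMR5-75 by 6.50 ± 0.48 (adjusted p = 2.93e-09), whereas in Be(2)-C it had 1 and 7 counts with DMSO and 6 and 3 with DAC, a count ratio of 1.07 (0.368 to 3.20) that was 0.610 without the first DMSO library and 4.33 without the second.

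Regulators known to act on MAGEA promoters were read from a list of 31 genes, all tested. DAC raised 1 and lowered 3 in Be(2)-C, and raised 3 and lowered 9 in IMR5-75. Over all genes tested 6.7% and 33.7% were called in either direction, so the count in IMR5-75 is near the share of all genes. CTCFL, the germ cell paralogue of CTCF, had 2 and 0 counts in Be(2)-C with DMSO and 22 and 19 with DAC (log2 change 4.14 ± 0.66, adjusted p = 0.000537). In IMR5-75 it had 2 and 5 against 119 and 121 (4.97 ± 0.38, adjusted p = 4.24e-09). With both drugs CTCFL had 7 and 5 counts in Be(2)-C, below DAC alone by -1.61 ± 0.45 (adjusted p = 0.0413), and 187 and 178 in IMR5-75, where the difference from DAC of 0.54 ± 0.21 was not called (adjusted p = 0.224).

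UHRF1, which brings DNMT1 to newly copied DNA, fell with DAC from 2330 and 2278 counts to 1775 and 1454 in Be(2)-C (adjusted p = 0.00189) and from 4236 and 4001 to 2428 and 1950 in IMR5-75 (adjusted p = 3.46e-07). It was also lower with EPZ-6438 alone (-0.81 ± 0.11 and -0.49 ± 0.11). DNMT1, the maintenance methyltransferase, was lower with DAC in IMR5-75 (-0.45 ± 0.12, adjusted p = 0.00836) and not called in Be(2)-C (-0.18 ± 0.13, adjusted p = 0.437). DNMT3A (0.21 ± 0.10 and -0.13 ± 0.10) and DNMT3B (0.05 ± 0.15 and 0.01 ± 0.13) were called in neither line. EZH2 was lower with DAC in IMR5-75 (-0.35 ± 0.10, adjusted p = 0.0119) and was not called in Be(2)-C (-0.33 ± 0.11, adjusted p = 0.0641). These are mRNA levels, not protein or enzyme activity.

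The binding partners of MAGEA proteins were present before treatment. Of 15 genes, all tested, DAC changed 0 in Be(2)-C by edgeR and lowered 3 in IMR5-75: NSMCE1, NSMCE4A and SNW1, the last a Notch pathway co-regulator that MAGEA1 binds. The shares of all genes called were 6.7% and 33.7%. TRIM28, the ligase bound by MAGEA3 and MAGEA6, had 1942 and 2031 counts in Be(2)-C with DMSO and 1989 and 1863 with DAC, and its change was not called in either line (adjusted p = 0.716 and 0.0953). With both drugs in IMR5-75 it was lower by -0.39 ± 0.14 (adjusted p = 0.0304).

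HLA class I presentation genes, which carry MAGEA peptides to the cell surface, were read from a list of 17, of which 15 were tested. With DAC 2 rose in Be(2)-C, HLA-E and HLA-C, and 6 rose in IMR5-75, where 3.73% and 19.9% of all genes tested were called higher. With both drugs 5 and 9 rose, against 13.2% and 25.7% of all genes. With EPZ-6438 alone 4 rose in Be(2)-C and 1 in IMR5-75, where 10.2% and 1.98% of all genes were called in either direction. None fell in these comparisons by edgeR.

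The 5 genes outside the MAGE lists whose pattern was most like the summed MAGEA level were XIST, NKAPL, CSAG1, TAF1L and LUZP4. Likeness was Pearson's r over the means of the 8 groups on the log2 CPM scale and was 0.997, 0.996, 0.994, 0.994 and 0.994. XIST, CSAG1 and LUZP4 lie on chromosome X, NKAPL on chromosome 6 and TAF1L on chromosome 9. The 8 means share their libraries with the MAGEA values and fall into treated and untreated sets, so the coefficients describe that division and carry no p-value.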

How the data were processed

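The authors sequenced 50-base single-end reads from a directional library kit and deposited 1 table of raw read counts per gene for 16 libraries. Per the submitters' processing notes, hg19, TopHat2 2.0.5, HTSeq 0.5.3p9 and DESeq2 were used. The sources used here do not give the annotation, the strand setting or the treatment of reads with several matches.

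The counts were fitted with edgeR 4.0.16 (R 4.3.3; quasi-likelihood test, TMM scaling, filterByExpr with a minimum count of 10) over 8 groups with 8 residual degrees of freedom, on 15967 of 23459 genes. Benjamini-Hochberg adjusted p-values were taken over all genes tested, and a call is an adjusted p under 0.05. The common biological coefficient of variation was 9.88%. CPM use TMM-scaled library sizes. Alternatives were DESeq2 1.42.0, no filter, other scaling, each line fitted alone, a replicate block and each library left out. On simulated data for 4 of the comparisons, with 200 of 15967 genes changed, 77% to 83% of 2-fold and 88% to 99% of 4-fold changes were recovered, with 3.45% to 8.76% false calls. The changed genes lay above a minimum level and had the same baseline in all groups, so none was close to silent in its controls. These rates need not hold for the MAGEA members.

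The 10 members are described in every comparison, by their values or by counts of those called. Of the gene lists, called MAGE, CSAG and neighbouring genes are named, up to 6 per comparison in order of adjusted p. TRIM28, CTCFL, EZH2, UHRF1 and the DNMT genes are named whatever their values, as are the 5 genes most like the family. CSAG2, CSAG3 and genes in the stretch around MAGEA4 were named beyond this rule, after their values were seen. The members and lists were chosen with earlier results of these data known. Protein identity between members was planned, and sharing of 50-base transcript stretches was used instead. One further gene of the naming rule is not reported here.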

Additional observations from a re-analysis of the deposited data

How the results depend on the processing

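No called change of a member reversed its direction under any alternative that was run. Of the counts of called members and summed levels, 214 values under alternatives stayed close to the value reported and 6 moved. A summed level was taken as close within the SD of its group, a limit that leaving out a single library of a pair cannot exceed. The 214 thus include summed levels that could not move. Comparisons with no member called under either setting also counted as close. With DESeq2 the count of members called was 1 for the difference between the lines of both drugs against DMSO, 3 for IMR5-75 against Be(2)-C after DAC and 3 after both drugs. With single libraries left out the last count was 3 to 5, the count in Be(2)-C was 5 to 6 for DAC and 5 to 7 for both drugs against DMSO, and 5 to 6 for both drugs against EPZ-6438. With total counts in place of TMM the summed level in IMR5-75 was 66.8 CPM after DAC and 82.0 after both drugs. Single-gene results held their side of the threshold in 1452 values, lost it in 25 and gained it in 3; those lost and not given above are MAGEA8 in Be(2)-C for both drugs against EPZ-6438 (adjusted p = 0.104 to 0.283), and MAGEA11 (0.0911 and 0.101) and MAGEA3 (0.0755 to 0.330) between the lines after both drugs.

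Same-numbered libraries did not deviate together (r from -0.250 to 0.229 over 28 pairs of groups, 6 above 0.1), so the replicate numbers name libraries only. With the replicate block the counts of called members were the same in every comparison, such as 6 for DAC and 7 for both drugs in Be(2)-C and 8 for each in IMR5-75.

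Depth limits the lowest members: MAGEA9 had 0 counts, MAGEA2 at most 5 in a library, and MAGEA10 at most 3 in a Be(2)-C library.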
